A study of Mus musculus with 6 samples.

Results

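Epidermal keratins were examined in the dorsal skin of tight skin (TSK) and wild-type (WT) mice. The set held 10 genes of 55291 in the table, chosen by name for the layer or state of the epidermis they are known from. Krt5, Krt14 and Krt15 stood for the basal layer, Krt1, Krt10, Krt2 and Krt77 for the suprabasal layers, and Krt6a, Krt16 and Krt17 for stressed epidermis. The table listed 54 keratin genes in all. Bulk RNA was sequenced from shaved whole dorsal skin of 3 TSK mice and 3 WT littermates on the C57BL/6 strain, with 1 library for each mouse. In TSK mice 1 allele of Fbn1, which encodes the extracellular microfibril component fibrillin 1, holds an internal duplication, and since every cell carries it no cell type is targeted. The labels give an age of 6 to 8 weeks and female sex for both groups, whereas the methods of the study give 8 weeks and male sex. No treatment is given for either group.

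Keratins build the intermediate filaments of epithelial cells, and a filament needs a type I and a type II keratin in each building block. Basal keratinocytes, which divide and hold the epidermis to the basement membrane, make the Krt5 and Krt14 pair. On leaving the basal layer they switch to the Krt1 and Krt10 pair, while wounding, friction and inflammation bring out Krt6a, Krt16 and Krt17, which are also made in the hair follicle at rest. In the mouse, the type I genes of this set lie in a cluster on chromosome 11 and the type II genes in a cluster on chromosome 15.

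Library totals ran from 17561453 to 19219814 counts. Fbn1, the check of the genotype, was at 262 to 289 CPM in WT and 1538 to 2284 CPM in TSK (CPM, the count scaled to the total of its library, as deposited), a log2 fold change of 2.54 (SE 0.22, adjusted p = 0.00327). Differences of TSK from WT were tested with edgeR's quasi-likelihood test after TMM scaling, which keeps very abundant genes from dominating the library size, with Benjamini-Hochberg adjustment over 19971 tested genes. A gene was called at an adjusted p below 0.05. The makeup of the libraries also differed, since a list of 15 adult muscle genes made up 21.7% ± 4.17 of all CPM in WT against 15.7% ± 1.06 in TSK (SD, n = 3), and 9 fibroblast genes made up 0.846% ± 0.173 against 3.01% ± 1.56. In bulk skin, fewer cells of a type and less RNA per cell cannot be told apart. The markers of keratinocytes as a whole (21 genes, among them Cdh1, Dsp, Jup and Perp) summed to 2718 to 4734 CPM in WT and 4072 to 5873 CPM in TSK, ranges that overlapped. None of the 21 was called, and their median log2 fold change was 0.14, against -0.03 over all tested genes. That median was 0.38 with library totals only, and its sign turned without TSK 1 (-0.11) or WT 2 (-0.033).

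None of the 10 keratins passed the test. At an unadjusted p below 0.05 there were 2, Krt10 and Krt77, both with higher values in TSK, and 20.0% of all tested genes were past that limit. Of all tested genes 3.39% were called, 2.71% as higher and 0.681% as lower in TSK. With DESeq2 1 keratin was called higher (Krt77), against 5.50% of the genes with an adjusted p in that test (1.98% were lower), and with limma-trend on log2(CPM + 1) 1 (Krt77), against 8.87% of all genes called higher. With limma-voom there was none, against 2.17%, and with library totals only 1 (Krt77), against 8.44%. At a fold above 2.5 and an adjusted p below 0.01, limits that the study applied to DESeq2, none of the 10 was called with edgeR or DESeq2, and 0.290% and 1.82% of tested genes were. Per library, Krt10 and Krt77 had more CPM in every TSK mouse than in any WT mouse, whereas Krt1, their partner or neighbour in the same layers, and all basal and stress keratins overlapped between the groups. A like separation of CPM with TSK above was seen for 29.1% of tested genes, and after TMM scaling for 14.1%, where Krt77 alone of the set kept it.

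**Figure D1:**
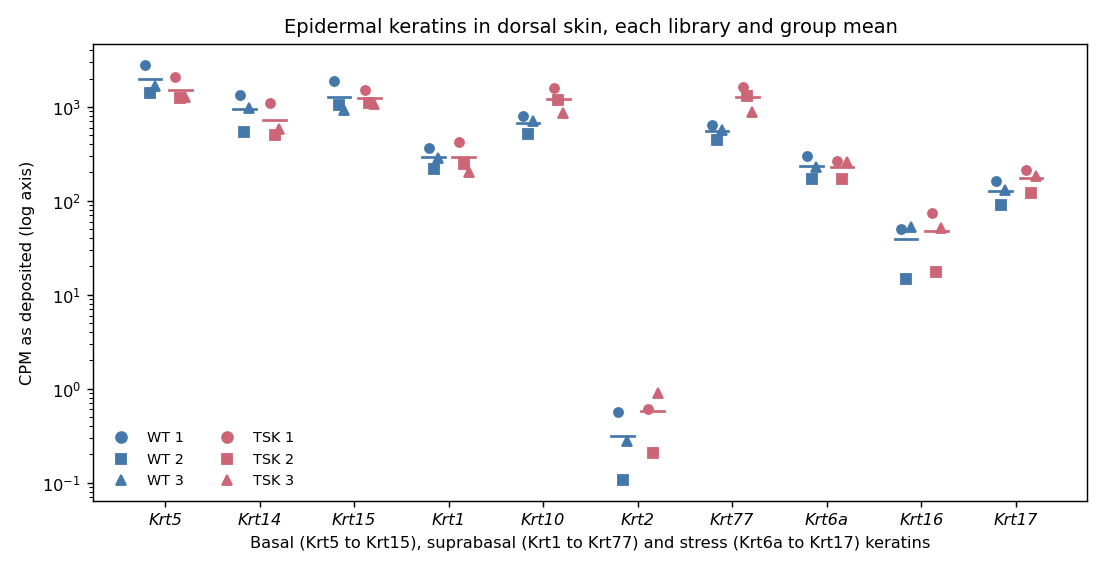
CPM as deposited (log axis) of the 10 epidermal keratins in each of the 3 WT and 3 TSK libraries, with a line at the group mean. For Krt10 and Krt77 all 3 TSK libraries lie above all 3 WT libraries, Krt2 lies below 1 CPM in every library, and the other keratins overlap.

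Levels between genes were compared as CPM per kilobase of the annotated transcript. Krt5 was at 891 ± 339 per kilobase in WT and 693 ± 213 in TSK (SD, n = 3). Krt15 was at 750 ± 302 and 722 ± 147, and Krt14 at 559 ± 234 and 428 ± 196. The highest mean was that of Krt5 in WT and of Krt15 in TSK, and the order of these basal keratins lay within the spread of the mice. Krt10 came next in WT with 321 ± 67.2 and reached 580 ± 173 in TSK, above the mean of Krt14 there. Krt77 was at 187 ± 34.8 in WT and 435 ± 129 in TSK, and Krt1 at 118 ± 30.0 and 119 ± 47.7. Krt6a (103 ± 28.9 and 101 ± 22.6) and Krt17 (82.2 ± 23.3 and 111 ± 29.7) did not differ from Krt1 beyond that spread. Krt16 was lower, at 24.9 ± 13.5 and 30.3 ± 18.2, and Krt2 was close to absent with 0.121 ± 0.0897 and 0.219 ± 0.133.

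Krt5, the type II keratin of the basal layer, lies at chr15:101707070-101712898 on the minus strand (GRCm38, the build of the files) and has 9 exons. It was at 2802, 1392 and 1677 CPM in WT 1 to 3 and at 2063, 1245 and 1258 CPM in TSK 1 to 3. WT 1 was highest and the groups overlapped. The log2 fold change was -0.60 (SE 0.30, 95% interval -1.28 to 0.09), with an adjusted p of 0.312. Krt14, its type I partner (chr11:100203162-100207548, minus strand, 8 exons), was at 1340, 545 and 964 CPM in WT and 1109, 498 and 574 CPM in TSK. The first library of each group was again the highest. Its log2 fold change was -0.61 (SE 0.37, 95% interval -1.46 to 0.23; adjusted p = 0.402). Krt15, a type I keratin of the basal layer that also marks the bulge of the hair follicle (chr11:100131758-100135928, minus strand, 8 exons), was at 1864, 1040 and 923 CPM in WT and 1515, 1103 and 1065 CPM in TSK. All 3 TSK values lay inside the WT range, with a log2 fold change of -0.30 (SE 0.27) and an adjusted p of 0.596. WT 1 therefore held the highest value of each of the 3 basal keratins. Without that library their log2 fold changes moved to -0.34, -0.37 and -0.02, in the same order as above, and without TSK 1 to -0.92, -1.09 and -0.51 (adjusted p = 0.162, 0.127 and 0.435).

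Krt1, the type II keratin made on entry into the suprabasal layers, lies at chr15:101845426-101850794 on the minus strand, with 9 exons. It was at 363, 215 and 288 CPM in WT and 425, 246 and 204 CPM in TSK. The groups overlapped and their means were close, at 289 ± 73.7 and 292 ± 117 CPM (SD, n = 3). The log2 fold change after TMM scaling was -0.23 (SE 0.29, adjusted p = 0.71). With 1 library left out it ran from -0.64 without TSK 1 (adjusted p = 0.164) to -0.013 without TSK 3. It was 0.02 when libraries were scaled by their totals only, a scaling that moved the median of all tested genes to 0.25, and relative to the median of all tested genes Krt1 was at -0.20 and -0.23 in these fits.

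Krt10, the type I partner of Krt1, lies at chr11:99385254-99389364 on the minus strand and has 8 exons. It was at 796, 519 and 702 CPM in WT and at 1590, 1185 and 867 CPM in TSK. The lowest TSK value, that of TSK 3, was above the highest WT value, and the mean was 672 ± 141 CPM in WT and 1214 ± 362 CPM in TSK, a ratio of 1.81. On the TMM scale the difference was smaller, at a log2 fold change of 0.60 (SE 0.26, 95% interval 0.0049 to 1.19, unadjusted p = 0.0485), TSK 3 lay within the WT range, and the adjusted p was 0.246. The log2 fold change was 0.32 without TSK 1 (adjusted p = 0.561) and 0.40 with scaling to the keratinocyte markers (adjusted p = 0.779). No stretch as long as a read (50 bases) in its transcript occurred in that of another gene, and the antisense gene Gm11940 that overlaps it was at most at 0.683 CPM.

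Krt77, a type II keratin of the suprabasal epidermis, lies next to Krt1 at chr15:101858731-101869705 on the minus strand, with 9 exons. It was at 642, 440 and 564 CPM in WT and at 1640, 1300 and 884 CPM in TSK. Each TSK library was above each WT library, before and after TMM scaling. Its mean was 549 ± 102 CPM in WT and 1275 ± 378 CPM in TSK, a ratio of 2.32 and the greatest among the 10 keratins. The log2 fold change was 0.96 (SE 0.26, 95% interval 0.37 to 1.55), with an unadjusted p of 0.00527 and an adjusted p of 0.083, short of the call. DESeq2 gave a like log2 fold change of 0.97 and an adjusted p of 0.00315, and edgeR without the filter on low counts gave an adjusted p of 0.0257, where 2.99% of genes were called higher. With scaling to the keratinocyte markers the log2 fold change was 0.76 (adjusted p = 0.398). With 1 library left out it ran from 0.70 without TSK 1 (adjusted p = 0.186) to 1.18 without TSK 3, the lowest TSK library (adjusted p = 0.0473), and the other 4 such fits did not call it (adjusted p = 0.08 to 0.239). Whether Krt77 was called thus depended on the processing, and its log2 fold change was positive in every fit run.

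Krt2, a type II keratin of the upper suprabasal layers that in the mouse is best known from ear, tail and sole skin (chr15:101810689-101818169, minus strand, 9 exons), was close to the detection limit. Its libraries held 10, 2 and 5 counts in WT and 11, 4 and 17 counts in TSK, where 3 counts correspond to 0.156 to 0.171 CPM. The ratio of TSK to WT, corrected for library totals, was 1.82, with an exact 95% interval of 0.983 to 3.50 that covers counting error only. No difference was detectable at this depth (log2 fold change 0.60, SE 0.64, adjusted p = 0.661). With 1 library left out the log2 fold change ran from 0.13 without TSK 3 to 1.22 without WT 1.

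To show the start regions of the suprabasal keratins with the greatest differences, the 150 bases upstream of the RefSeq start sites (assembly GRCm38.p6) of Krt10 and Krt77 are given with those of Krt5 as a basal contrast. All are read 5′ to 3′ on the minus strand, from chr11:99389365-99389514 for Krt10, chr15:101869706-101869855 for Krt77 and chr15:101712906-101713055 for Krt5. Capitals mark TTNNGNAA on either strand, the letters of a motif bound by C/EBP factors, which act in keratinocyte differentiation.
Krt10: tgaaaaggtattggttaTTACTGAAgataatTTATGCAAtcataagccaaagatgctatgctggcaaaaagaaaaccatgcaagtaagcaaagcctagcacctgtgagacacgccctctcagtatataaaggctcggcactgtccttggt
Krt77: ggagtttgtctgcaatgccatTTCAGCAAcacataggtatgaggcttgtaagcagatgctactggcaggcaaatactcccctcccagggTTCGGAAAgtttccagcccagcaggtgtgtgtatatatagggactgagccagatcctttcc
Krt5: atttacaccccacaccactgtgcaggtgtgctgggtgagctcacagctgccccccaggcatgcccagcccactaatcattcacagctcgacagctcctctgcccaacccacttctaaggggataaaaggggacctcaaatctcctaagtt
Krt10 held the letters at -133 and -119 and Krt77 at -129 and -61, counted from the start site to the first base of the match, and Krt5 held none. The window of Krt2 also held none. Among all 32851 RefSeq promoters, 22.7% held the letters at least once in these 150 bases. Of 6 other motifs searched on both strands in the same windows, the letters of AP-1 (TGANTCA, in 4.24% of all promoters) and AP-2 (GCCNNNGGC, 9.61%) occurred in none of the 3 genes. TATAAA (7.57%) occurred once in Krt10, at -26, and CCAAT (24.5%) once in Krt10, at -141. CANNTG (47.7%) occurred in all 3 genes, and of these 3 CACCC (37.4%) occurred in Krt5 alone, at -145 and -118. The window of Krt2 held CACCC at -60. These matches describe the sequence and are no evidence of binding.

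Krt6a, a type II stress keratin (chr15:101689910-101694307, minus strand, 9 exons), was at 301, 170 and 231 CPM in WT and 264, 172 and 258 CPM in TSK. The TSK values lay inside the WT range, and the log2 fold change was -0.27 (SE 0.21, adjusted p = 0.534), and -0.092 without TSK 2 or -0.41 without TSK 1. Krt16, the type I stress keratin induced in wounds (chr11:100246091-100248902, minus strand, 8 exons), was at 49.5, 14.6 and 52.6 CPM in WT and 74.1, 17.3 and 51.0 CPM in TSK. It was low in the second library of both groups and varied among mice more than any other member except Krt2, with a log2 fold change of 0.06 (SE 0.54, adjusted p = 0.97) that ran from -0.46 to 0.46 with 1 library left out. Krt17, a type I keratin of stressed epidermis and of the outer root sheath of the follicle (chr11:100256217-100261029, minus strand, 8 exons), was at 162, 90.1 and 130 CPM in WT and 212, 122 and 183 CPM in TSK. The groups overlapped, and its log2 fold change was 0.19 (SE 0.23, adjusted p = 0.712).

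Krt6a and Krt16 shared the most sequence with other genes among the 10, counted over the length of a read. Of the 50-base stretches of the Krt6a transcript, 49.5% occurred elsewhere, most of them in Krt6b, with which its coding sequence shared 97.8% of aligned bases. For Krt16 the share was 37.6%, mainly with Gm11597 and Krt14, for Krt14 14.4%, for Krt5 8.52% and for Krt17 3.99%. It was 0.666% for Krt15 and 0% for Krt1, Krt10, Krt2 and Krt77. Per kilobase, Krt14 was at 559 and Krt16 at 24.9 in WT, so a small part of Krt14 reads assigned to Krt16 would weigh on the latter. To show the extent of the sharing, 90 coding bases of exon 1 are given for Krt6a (chr15:101694031-101694120, GENCODE M21 on GRCm38, minus strand), Krt6b (chr15:101680006-101680095) and the related Krt5 (chr15:101712584-101712673), with capitals at bases that differ from Krt6a and Krt5 shown at its best match without gaps.
Krt6a: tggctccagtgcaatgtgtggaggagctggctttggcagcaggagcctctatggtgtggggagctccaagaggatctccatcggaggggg
Krt6b: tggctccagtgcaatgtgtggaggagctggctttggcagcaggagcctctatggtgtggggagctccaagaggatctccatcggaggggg
Krt5: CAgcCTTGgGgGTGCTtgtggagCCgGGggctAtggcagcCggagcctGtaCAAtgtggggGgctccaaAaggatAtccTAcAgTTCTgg
Krt6a and Krt6b were the same over 280 coding bases in a row, and Krt5 differed from them at 32 of these 90 bases. A second stretch of exon 1 is given for Krt14 (chr11:100207039-100207128), Krt16 (chr11:100248498-100248587) and Krt17 (chr11:100260660-100260749), all on the minus strand, with capitals at bases that differ from Krt14.
Krt14: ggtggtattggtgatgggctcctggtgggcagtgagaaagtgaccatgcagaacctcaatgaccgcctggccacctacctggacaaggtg
Krt16: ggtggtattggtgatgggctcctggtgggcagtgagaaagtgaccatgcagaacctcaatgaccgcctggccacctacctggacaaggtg
Krt17: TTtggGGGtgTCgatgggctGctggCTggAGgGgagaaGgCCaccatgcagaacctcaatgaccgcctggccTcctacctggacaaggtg
Krt14 and Krt16 were the same over 134 coding bases in a row, and Krt17 differed at 17 of the 90. A read from within either shared run cannot be assigned to 1 gene.

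Because the libraries differed in muscle and fibroblast RNA, the keratins were also compared with each other inside each library, where the scaling cancels. As a mean of log2 levels, the 4 suprabasal less the 3 basal keratins came to -4.17, -4.05 and -3.83 in WT and to -3.17, -3.06 and -3.03 in TSK. Every TSK library was above every WT library, and the difference was 0.93 on the log2 scale (SE 0.11). Without the near-absent Krt2 it was 0.91. Among single genes, which give no like-for-like background for a mean of 4, 17.1% separated from the mean of the basal keratins with TSK above. An exact two-sided permutation test of 3 mice against 3 cannot give a p below 0.1, which was the value here (0.3 after Benjamini-Hochberg adjustment over the 9 differences tested), so none of these differences could pass the threshold in that test.

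Within the pair of Krt1 and Krt10, the ratio of Krt10 to Krt1 (of CPM) was 2.19, 2.41 and 2.44 in WT and 3.74, 4.81 and 4.25 in TSK. The 3 WT ratios differed little, at 2.35 ± 0.135, and the TSK ratios were all higher, at 4.27 ± 0.534 (SD, n = 3). On the log2 scale the difference was 0.86 (SE 0.12, exact permutation p = 0.1, adjusted 0.3), and leaving out any 1 library left it between 0.77 and 0.95. Relative to Krt1, 7.53% of tested genes separated the groups with TSK above. Another 5 ratios were added after the values were seen and were therefore not tested. The ratio of Krt77 to Krt1 was 1.77, 2.04 and 1.96 in WT and 3.86, 5.28 and 4.34 in TSK. The ratio of Krt77 to Krt10 was 0.807, 0.847 and 0.803 in WT and 1.03, 1.10 and 1.02 in TSK, again without overlap, as for 1.44% of tested genes relative to Krt10 with TSK above. The ratio of Krt10 to Krt5 was 0.284, 0.373 and 0.419 in WT and 0.771, 0.952 and 0.689 in TSK, and 24.5% of tested genes separated in this way relative to Krt5. Krt10 to Krt14 did not overlap either, at 0.594, 0.953 and 0.729 in WT and 1.43, 2.38 and 1.51 in TSK. The ratio of Krt1 to Krt5 overlapped, at 0.129, 0.155 and 0.171 in WT and 0.206, 0.198 and 0.162 in TSK.

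Within the basal pair, the ratio of Krt14 to Krt5 was 0.478, 0.391 and 0.575 in WT and 0.538, 0.400 and 0.456 in TSK. These groups overlapped, with a log2 difference of -0.04 (SE 0.20, exact permutation p = 0.8, adjusted 0.8). Among the stress keratins, the ratio of Krt17 to Krt14 was 0.121, 0.165 and 0.135 in WT and 0.192, 0.245 and 0.319 in TSK, with all TSK libraries higher (log2 difference 0.82, SE 0.25, exact permutation p = 0.1, adjusted 0.3; 10.1% of tested genes separated in this way relative to Krt14). The ratio of Krt16 to Krt6a overlapped, with a log2 difference of 0.27 (SE 0.60, exact permutation p = 0.6, adjusted 0.675). Krt15 less Krt14 (0.38, SE 0.35, p = 0.5 in the same exact test), Krt2 less Krt1 (0.79, SE 0.66, p = 0.4), the stress less the basal keratins (0.47, SE 0.31, p = 0.2) and the stress less the suprabasal keratins (-0.46, SE 0.26, p = 0.2) overlapped too. With 1 library left out these 4 differences ran from 0.13 to 0.62, 0.21 to 1.17, 0.25 to 0.68 and -0.65 to -0.24, in the same order.

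**Figure D2:**
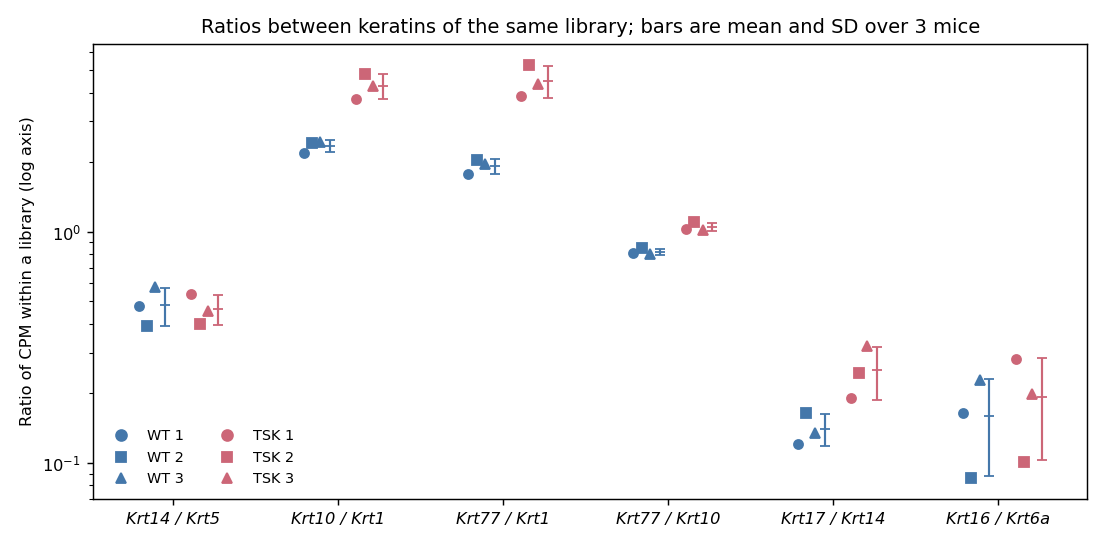
Ratios of CPM between keratins of the same library (log axis) in 3 WT and 3 TSK mice; points are libraries and bars the mean and SD. Krt10 to Krt1, Krt77 to Krt1, Krt77 to Krt10 and Krt17 to Krt14 do not overlap between the genotypes, while Krt14 to Krt5 and Krt16 to Krt6a do.

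Leaving out Krt2 for its low counts, 36 pairs can be formed from the other 9 keratins, and 15 of them did not overlap between the groups. Over all pairs of tested genes, 26.0% did not overlap in either direction. Of the 15 keratin pairs, 11 were among the 15 pairs that include Krt10 or Krt77. The other 4, of 21 pairs, all included Krt17, which was higher in TSK relative to Krt5, Krt14, Krt1 and Krt6a. The pairs share genes and are not independent. Across the 6 libraries, log2 levels of Krt10 and Krt77 varied together (Pearson r = 0.97), as did those of Krt5 and Krt14 (0.95) and of Krt16 and Krt17 (0.93). Krt1 varied with Krt14 (0.90) and Krt5 (0.87) and much less with Krt10 (0.39) or Krt77 (0.14). These correlations describe 6 libraries that share a genotype difference and a scaling, and carry no test.

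Among 11183 protein-coding genes with a mean of at least 5 CPM, those whose log2 level followed the mean of the basal keratins most closely over the 6 libraries were Plek2 (r = 0.9925), Hnrnpa1 (0.9924), Limk2 (0.9922), Trp63 (0.991), the transcription factor that maintains basal keratinocytes, and Mtcp1 (0.9896). The mean of the suprabasal keratins was followed by Pdlim2 (0.9956), Trim28 (0.9922), Lce1a2 (0.9873), which encodes a protein of the late cornified envelope, Lypd3 (0.9826), a surface protein of suprabasal keratinocytes, and Cpa4 (0.9806). For the stress keratins they were Pfkp (0.979), Ess2 (0.9726), Npl (0.972), Rfxank (0.9679) and Inava (0.9667). These are the highest of 11183 values for each group, taken over 6 libraries, and none of the 15 genes was called. The suprabasal mean gave Krt2, at 2 to 17 counts per library, the same weight as each of the other keratins in it.

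The genes that work beside the keratins were read as lists. Among 22 genes of keratinocyte differentiation, 8 rose in TSK (2.71% of all tested genes did) and none fell, and 20 had positive log2 fold changes, with a median of 0.51 (all tested genes, -0.03). Lor, which encodes loricrin, the main protein of the cornified envelope, was at 48.0, 27.2 and 40.4 CPM in WT and 197, 152 and 125 CPM in TSK, a log2 fold change of 1.78 (SE 0.22, adjusted p = 0.00913). The TSK libraries were all well above the WT libraries. Krtdap, a secreted protein of differentiating keratinocytes, rose by 1.72 (adjusted p = 0.0134), Asprv1, a protease that processes profilaggrin, by 1.49 (0.0209) and Cdsn, which encodes the adhesion protein corneodesmosin, by 1.48 (0.0187), all on the log2 scale. Each of these 4 genes had greater fitted differences than Krt10 or Krt77. Of 2 other envelope genes named after their values were seen, Ivl, for involucrin, had a log2 fold change of -0.29 (adjusted p = 0.505) and Flg, for profilaggrin, one of 0.51 (0.297). With libraries scaled to the keratinocyte markers, 5 of the 8 were still called and the median was 0.38. None was called without WT 3, where only 60 genes were called in the whole table, and the median was then 0.69; without WT 2 there were 3.

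The list of the basal layer and its hemidesmosomes, the junctions that tie basal keratin filaments to the basement membrane, went the other way in sign only. None of its 10 genes was called, and all 10 had negative log2 fold changes, with a median of -0.42 that was -0.17 with scaling by library totals and -0.21 without WT 1. Dst, which encodes a plakin that links keratin filaments to hemidesmosomes, was at 2242, 2008 and 1899 CPM in WT and 1861, 1846 and 1700 CPM in TSK. Its CPM did not overlap between the groups, with TSK below, as for 2.58% of tested genes (a share of 10.6% after TMM scaling). The log2 fold change of Dst was -0.46 (SE 0.20, adjusted p = 0.239), while DESeq2 called it lower. Muscle genes also made up less of the CPM in TSK (15.7% against 21.7% in WT), and their part in the Dst result was not tested. Lama3, for a laminin chain of the basement membrane, was called lower with the replicate block, and Itga3, for an integrin chain, without TSK 1. Col17a1, a transmembrane collagen of the same junction, was at 1237, 714 and 725 CPM in WT and 1031, 684 and 688 CPM in TSK (log2 fold change -0.40, SE 0.25, adjusted p = 0.428). Among 17 proliferation genes none was called. The median was -0.41 (-0.16 without WT 1, -0.17 with library totals only), and the most abundant, Mki67 and Top2a, had log2 fold changes of -0.51 and -0.31 (adjusted p = 0.306 and 0.538).

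Of the plakins and desmosomal plaque proteins, which anchor keratin filaments at cell junctions, none of 9 was called, with a median of 0.14 that was -0.09 without TSK 1 and -0.034 with scaling to the keratinocyte markers. Dsp, Evpl, Ppl, Pkp1, Pkp3 and Jup of this list are themselves among those markers, so the last value is not independent of the scaling. Plec, for plectin, was called lower without WT 1, and the part of muscle RNA in this was not tested. Dsp (desmoplakin) was at 1645, 942 and 1043 CPM in WT and 2269, 1575 and 1542 CPM in TSK, with a log2 fold change of 0.32 (adjusted p = 0.528). Eppk1 (epiplakin) had one of 0.35 (adjusted p = 0.369). Among 21 tested transcription factors of keratinocytes, Cebpa was called alone in edgeR with TMM, where it rose from 46.1, 23.6 and 34.0 CPM in WT to 94.7, 162 and 75.7 CPM in TSK (log2 fold change 1.43, adjusted p = 0.0351). DESeq2 called Klf4, Notch3 and Zfp750 higher as well, and 5 factors were called with library totals only. Cebpa was highest in TSK 2, where the 10 adipocyte markers, a cell type that also makes Cebpa, summed to 3478 CPM. These markers summed to 407 to 503 CPM in WT and 779 and 974 CPM in the other TSK libraries, 3 of the 10 rose (none without WT 2, 9 with library totals only), none was at 0, and their part in the result was not tested. Cebpa was not called without TSK 1, TSK 2, WT 2 or WT 3.

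Of 18 genes of the stress and alarmin list, 11 passed the filter on low counts, and 2 of these rose. Sprr1a, a cornified envelope precursor, was at 10.8, 3.03 and 7.09 CPM in WT and 32.7, 17.9 and 35.5 CPM in TSK (log2 fold change 1.81, adjusted p = 0.0397; not called with limma-voom or without WT 2, WT 3, TSK 1 or TSK 3), and Ereg, a growth factor of the EGF family, at 1.82, 1.70 and 1.87 CPM and at 9.86, 6.90 and 5.84 CPM (1.79, adjusted p = 0.0148). Krt6a, Krt16 and Krt17 did not separate the groups in the same libraries. S100a8 and S100a9, named after their values were seen, encode alarmins that accompany these keratins in inflamed epidermis. S100a8 was below 1 CPM in all libraries and did not pass the filter, and S100a9 had a log2 fold change of -2.21 (adjusted p = 0.0698) and was called lower with scaling to the keratinocyte markers. DESeq2, and edgeR without the filter on low counts, called S100a8, Il1b and Sprr1b lower, and the list median was -0.07 and -0.08 against 0.26 over the 11 genes. S100a8 was also called lower when any 1 library other than WT 3 was left out.

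**Figure D3:**
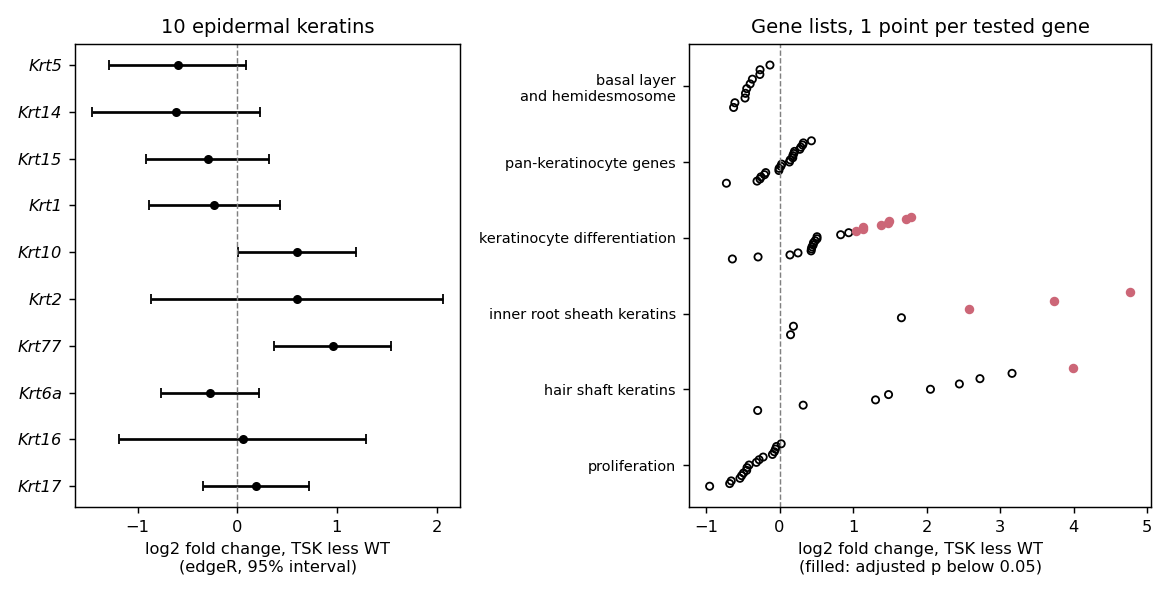
Left, log2 fold changes of TSK less WT with 95% intervals for the 10 epidermal keratins (edgeR); right, log2 fold changes of the tested genes of 6 lists, filled where the adjusted p was below 0.05. Krt77 and Krt10 lie to the right of 0 with intervals that exclude it before adjustment, 8 of 22 differentiation genes are filled, and all basal layer genes lie to the left of 0 without a call.

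The remaining keratins of the table belong mostly to the hair follicle and were read for comparison. Of 8 inner root sheath keratins 6 were tested and 3 rose, from very low levels. Krt25 was at 0.0980, 0.234 and 0 CPM in WT and 2.36, 6.73 and 2.49 CPM in TSK (log2 fold change 4.77, adjusted p = 0.0171), Krt71 had a log2 fold change of 3.74 (0.032) and Krt27 one of 2.58 (0.0348). Of 13 hair shaft keratins, 9 were tested and 1, Krt87, rose (3.99, adjusted p = 0.00847). The list medians were 2.12 and 2.05, and with limma-trend on log2(CPM + 1) they were 0.99 and 0.78. These counts varied with the processing: for the hair shaft it was 3 with DESeq2, 4 with scaling to the keratinocyte markers, 5 with library totals only, 6 with limma-trend and 4 without WT 1, and for the inner root sheath it was 2 with DESeq2 or limma-voom, 2 without WT 1 and 1 (Krt25) without WT 2, TSK 2 or TSK 3. The share of all genes called higher moved as well, from 2.71% to 5.50% with DESeq2, 8.44% with library totals only and 8.87% with limma-trend, but was 2.39% with scaling to the keratinocyte markers. All of these libraries came from shaved skin, and 3 of 11 tested genes of the hair matrix and follicle list rose with them (Dlx3, Lef1 and Cd34). That list summed to 158 to 276 CPM in WT and 322 to 400 CPM in TSK, only Shh was at or near 0, and its part in the result was not tested. All 9 fibroblast and all 5 endothelial marker genes also had more CPM in every TSK library than in any WT library (29.1% of tested genes did). Which cells gave the 3 called genes was not tested. With scaling to the keratinocyte markers 1 of the 3 (Dlx3) was called, as without WT 2 or TSK 2.

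Among other follicle and gland keratins, Krt23 rose (log2 fold change 0.99, adjusted p = 0.0288) and Krt6b fell. Krt23 was not called with scaling to the keratinocyte markers or without WT 2, WT 3 or TSK 2. Krt19 and Krt80 (adjusted p = 0.0816 and 0.0527 in edgeR with TMM) were also called higher with DESeq2, limma-trend or library totals only. The same held without the low-count filter and without WT 1, and for Krt80 with the replicate block. In these fits 2.99% to 8.87% of all genes were called higher. Krt6b, the near copy of Krt6a, was at 10.8, 0.692 and 20.7 CPM in WT and 0.450, 0.0957 and 0.198 CPM in TSK (log2 fold change -5.63, SE 1.14, adjusted p = 0.0366). The groups did not overlap, but WT 2 was close to the TSK libraries, and the call was lost without WT 3 or any 1 of the TSK libraries and with limma-voom. Since 50.1% of the 50-base stretches of Krt6b occur elsewhere, its counts depend on how shared reads were assigned. Together, Krt6a and Krt6b were dominated by Krt6a in every library. Of the 3 simple epithelial keratins Krt18 fell (-1.66, adjusted p = 0.0482), at 0.318 to 1.43 CPM, and among 10 other surface keratins, of which 3 were tested, Krt24 fell (-1.09, adjusted p = 0.038), and neither was called when any 1 library was left out, nor with library totals only.

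How the libraries were scaled moved these values. With library totals alone, the median over all tested genes was a log2 fold change of 0.25, against -0.03 with TMM, and with scaling to the keratinocyte markers it was -0.17. Across these scalings Krt5 and Krt14 remained negative and Krt10 and Krt77 positive, while Krt1 changed sign with library totals and Krt16 with the keratinocyte markers. Relative to the median of all tested genes neither changed sign with these scalings. Without WT 3, none of the genes of the keratin, keratinocyte, hair matrix and adipocyte lists was called higher. Relative to the shift of all genes, Krt77 lay 0.93 to 0.98 above the median under each of the 3 scalings. A scaling shifts all genes by nearly the same amount, so values relative to the median change little by construction and give no separate support.

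**Figure D4:**
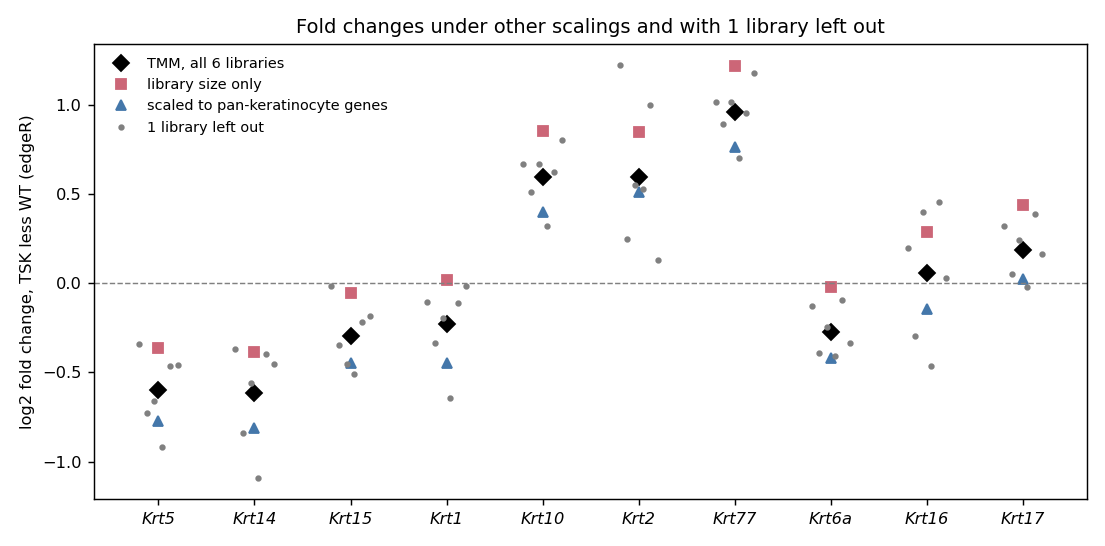
Log2 fold changes of TSK less WT (edgeR) for the 10 epidermal keratins with TMM, with library totals only, with scaling to the keratinocyte markers and with 1 library left out in turn. Krt10 and Krt77 are above 0 and Krt5 and Krt14 below 0 at every point, whereas Krt16 and Krt17 lie on both sides.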

How the data were processed

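The authors depleted ribosomal RNA from total RNA, made stranded libraries and read single ends of 50 bases. Per the labels, the submitters' notes name bcl2fastq 2.19.1.403, STAR, Partek 11.0 and the mm10 build. The deposited table named as raw counts was used with the table of CPM the authors made from it. Only 43.3% to 45.4% of its non-zero values were whole (within 0.001), so the values deposited by the authors are estimated counts, in which reads shared by genes can be split. The design had assumed whole counts, and values were rounded before the test.

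Groups came from the sample titles. The test was edgeR 4.0.16 (quasi-likelihood, TMM, filterByExpr, R 4.3.3), checked on simulated data, with DESeq2 1.42.0 and limma 3.58.1 as alternatives. SEs were derived from the fold change and F statistic. Differences between keratins within a library used TMM log2 CPM (prior count 2) and exact two-sided permutation tests. Other alternatives covered scaling, filters, pseudocounts (1 and 0.1), a replicate block and the removal of 1 library at a time. Named genes were all 10 keratins and, per list, up to 4 called genes with the greatest change, or the 2 most abundant where none was called. The keratins and lists were chosen with earlier results of these data known. Coordinates are 1-based, from GENCODE M21. RefSeq promoters were matched by symbol for 5 keratins. That of Krt14 starts inside the gene and was not used, and 1 listed hair shaft keratin was not analysed here. Whether replicate numbers pair the mice is not given, and they were not taken as pairs.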

Additional observations from a re-analysis of the deposited data

How the results depend on the processing

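Across the alternatives, 166 of 179 recomputed fold changes of single keratins kept their direction and their side of the threshold, as did 70 of 74 recomputed differences between keratins of a library, although the exact test used for the latter cannot pass the threshold with 3 mice against 3. Among these differences, those on deposited CPM with pseudocounts of 1 and 0.1 nearly repeat the main value for abundant genes. Krt10 less Krt1 was 0.85 and 0.86 there, against 0.86, so they add little support. The count of keratins higher in TSK went from 0 to 1, Krt77 each time, with library size only (log2 fold change 1.22, adjusted p = 0.0184), with DESeq2 (0.97, 0.00315), with limma-trend on log2(CPM + 1) (1.19, 0.0176) and on log2(CPM + 0.1) (1.19, 0.0173) and without the low-count filter (0.96, 0.0257). When each library was left out in turn the count ran from 0 to 1, and it was 1 without TSK 3 (adjusted p = 0.0473). Over all alternatives the adjusted p of Krt77 ran from 0.00315 to 0.398. The count of lower keratins was 0 throughout. Directions reversed for Krt1 (0.016 with library size only), for Krt16 (-0.15 with scaling to the keratinocyte markers, -0.022 with limma-voom, -0.013 with the replicate block, and -0.46 to 0.46 with 1 library left out, being -0.30 without WT 2 and -0.46 without TSK 1) and for Krt17 (-0.023 to 0.39 with 1 library left out, the lowest without TSK 1). Krt14 less Krt5 ran from -0.19 to 0.092 with 1 library left out (0.092 without WT 3, 0.058 without TSK 2), and Krt16 less Krt6a from -0.12 to 0.67 (-0.12 without WT 2, -0.06 without TSK 1). The cause of these changes was not tested.

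The replicate block, which treats equal replicate numbers as pairs, left the counts of higher and lower keratins at 0 and 0. Deviations of equally numbered libraries from their group means correlated at 0.0112, 0.167 and -0.0938 (Pearson r), so the numbers were not taken as pairing the mice. Suprabasal less basal keratins came to 0.91 and stress less suprabasal to -0.43 without Krt2, an alternative chosen after seeing the data. Krt2 gave no value at a minimum of 1 CPM in 3 libraries. Depth limits Krt2 (2 to 17 counts per library) and the inner root sheath and hair shaft keratins. Arrangement of the mice as 3 against 3 limits the exact tests to p = 0.1. Counts of Krt6a, Krt6b and Krt16 depend on how shared reads were assigned.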
